A study of Zea mays with 6 samples.

Results

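Starch in maize is built by a short chain of enzymes, and 9 genes of that chain were followed here in leaves, out of 44320 gene rows in the table. Membership was fixed by identifier, by a list drawn up when earlier results of these data were known. The 9 are sh2 (Zm00001d044129), bt2 (Zm00001d050032), ss1 (Zm00001d045261), du1 (Zm00001d000002), wx1 (Zm00001d045462), sbe1 (Zm00001d014844), sbe2a (Zm00001d003817), ae1 (Zm00001d016684) and su1 (Zm00001d049753). The symbols are those of the list that defined the set. The deposited table carries identifiers only, and the roles given below are those known for the named loci.

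The libraries were 3 from leaves of KO1, a maize (Zea mays) line with the genotype label ZmGA20ox3 KO, and 3 from leaves of wild-type plants (WT). ZmGA20ox3 is a gibberellin 20-oxidase gene, whose enzyme acts in the synthesis of the growth hormone gibberellin. All plants were grown normally, without an imposed stress, and leaves were sampled at stage V8 of vegetative growth. KN5585 is the cultivar named for both groups, although the protocol on growth writes the WT line as KN5855. The labels call the 3 libraries of a group biological replicates and give neither the hour of harvest nor the leaf position. Whether KO1 derives from 1 edited plant is not stated in the labels. Values are TPM (transcript levels scaled for gene length and to a fixed total per library), so depth is unknown. The leaf label was not checked against marker genes, since no marker could be paired with an identifier. Genes at 1 TPM or more numbered 20697 to 21115 in the KO1 libraries and 19282 to 20537 in the WT libraries, and the part of this difference in the results below was not tested.

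Starch synthesis starts with ADP-glucose pyrophosphorylase, a tetramer of large and small subunits that makes the sugar donor ADP-glucose. Starch synthases then extend the glucan chains, branching enzymes join chains to each other, and an isoamylase-type debranching enzyme trims misplaced branches so that the polymer can crystallise. In leaves the product is transient starch, made in chloroplasts by day and broken down at night, and in maize it is stored mainly in the bundle sheath. In the kernel the same chemistry fills the endosperm. Most of the loci, sh2, bt2, du1, wx1, ae1 and su1, carry the names of kernel mutants (shrunken, brittle, dull, waxy, amylose-extender and sugary), while ss1, sbe1 and sbe2a are known by their enzymes. Of the branching enzyme II forms, ae1 is known as the endosperm form and sbe2a as the leaf form.

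Of the summed TPM of the 9 genes in leaves, most came from ss1, sbe2a and sbe1 in both genotypes. Other genes of the pathway could not be counted. The 9 genes together had 535, 493 and 426 TPM in KO1 replicates 1 to 3, against 753, 409 and 529 TPM in WT replicates 1 to 3. The groups overlapped, and WT replicate 1 had the highest sum of the 6 libraries. That library, which was also the highest for ss1, sbe2a and su1, had the fewest genes at 1 TPM or more (19282) and the most listed at 0 (18917). The mean sum was 484.6 TPM in KO1 and 564 TPM in WT, and without WT replicate 1 the WT mean was 469.0 TPM, so the order of the means turned. The part of WT replicate 1's lower number of detected genes in this was not tested. The pair ss1 and sbe2a made up 81.2% ± 4.15 of the sum in KO1 and 76.9% ± 6.61 in WT (SD, n = 3 each). The 6 kernel-mutant loci together had 36.8, 42.0 and 33.8 TPM in KO1, against 70.6, 54.6 and 57.2 TPM in WT. Their share of the sum was 7.78% ± 0.832 in KO1 and 11.2% ± 2.01 in WT (SD, n = 3 each), with every KO1 library below every WT library. Most of that level came from su1 and bt2, the only members whose groups were apart. Of the other kernel-mutant loci, sh2 and wx1 had lower means in KO1, and ae1 and du1 had higher means in KO1. These sums run over chosen genes and were not tested.

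**Figure D1:**
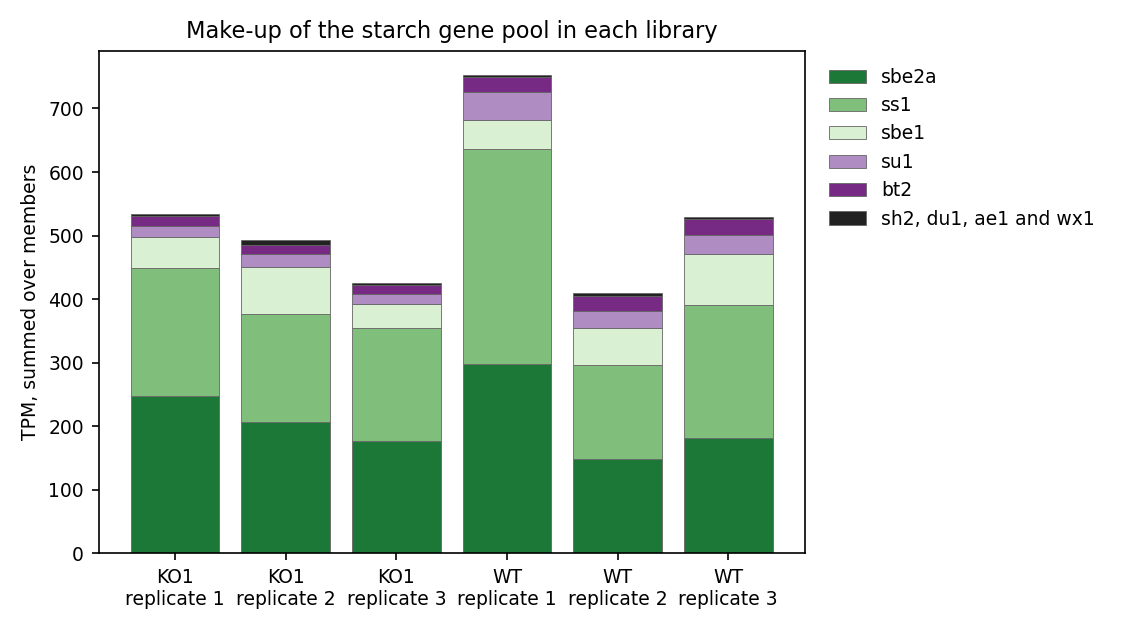
Summed level of the 9 starch genes (TPM, vertical axis) in each library, KO1 at the left and WT at the right, with 1 colour per gene and the 4 lowest genes joined. The green blocks (sbe2a, ss1 and sbe1) make up most of every bar, and WT replicate 1 has the tallest bar at 753 TPM.

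The order of the genes by level was nearly the same in both genotypes. In KO1 the means ran from sbe2a (210.0 TPM) through ss1, sbe1, su1, bt2, sh2, du1 and ae1 to wx1. In WT the order was ss1 (232 TPM), sbe2a, sbe1, su1, bt2, sh2, ae1, du1 and wx1. The pair ss1 and sbe2a changed places, but their ranges overlapped within each genotype. From ss1 and sbe2a down to sbe1, su1, bt2 and sh2, the remaining neighbours had separate ranges in both genotypes. At the low end the ranges of sh2 and du1 and of du1 and ae1 overlapped in KO1, and those of ae1 and du1 overlapped in WT. By mean over all 6 libraries, sbe2a ranked 635 and ss1 ranked 645 among the 44320 rows.

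Of the 9 genes, 6 had at least 1 TPM in at least 3 libraries and were tested, and bt2 alone passed, as lower in KO1. Over all 20990 genes tested in limma, 15.7% passed at an adjusted p under 0.05, with 9.87% higher and 5.86% lower in KO1. A count of 1 in 6 is near that background, so nothing is read from it about the set as a whole. None of the 6 was called higher in KO1. At an unadjusted limma p under 0.05 there were likewise 0 higher, with 2 lower, bt2 and su1. Over all tested genes, 20.2% were higher and 14.2% lower at that limit. The groups did not overlap for 2 of the 6, again bt2 and su1, while 40.5% of all tested genes showed such a separation. The median difference of the 6 was -0.24 on the log2(TPM + 1) scale, against 0.05 over all tested genes, whose quartiles were -0.35 and 0.50. The remaining 3 genes, du1, wx1 and ae1, were too low to enter the test.

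**Figure D2:**
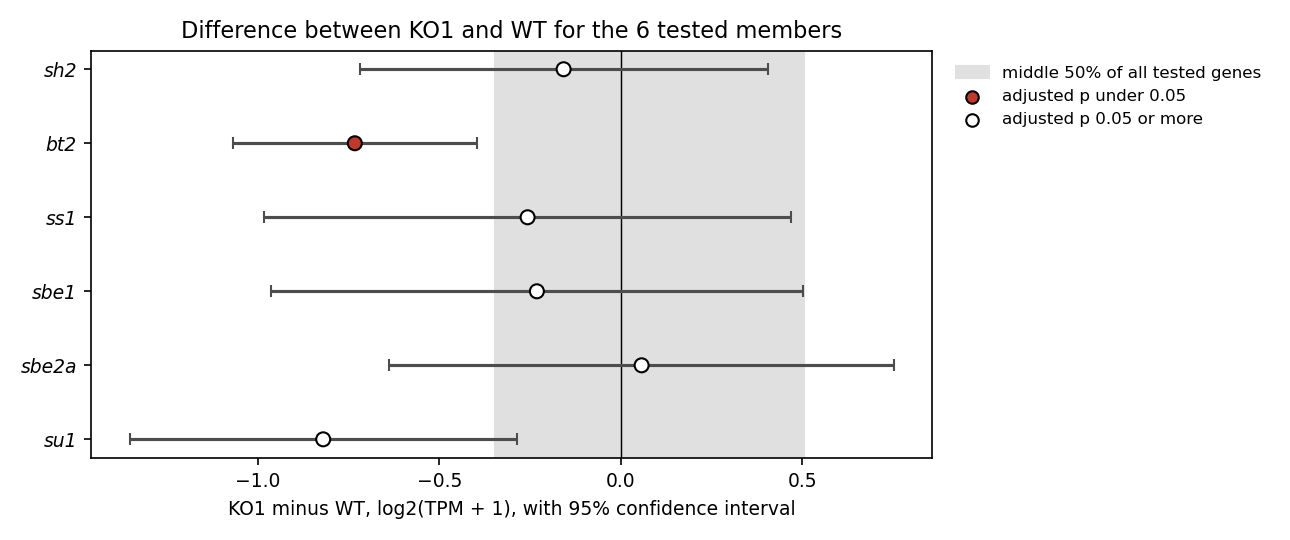
Difference between KO1 and WT on the log2(TPM + 1) scale (horizontal axis) for the 6 tested genes, with bars for the 95% confidence interval from limma and a grey band between the quartiles of all tested genes. Only bt2 is filled, at -0.73; su1 lies further left at -0.82 with a wider interval, and the intervals of sh2, ss1, sbe1 and sbe2a cross 0.

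The kernel-mutant locus bt2, a small subunit gene of ADP-glucose pyrophosphorylase, was lower in KO1 leaves. Genes of this enzyme other than bt2 and sh2 were not followed, so the total for either subunit in leaves is unknown. The level of bt2 was 14.9, 13.9 and 13.1 TPM in KO1, against 22.7, 24.5 and 24.3 TPM in WT. The 3 KO1 libraries lay close together and well below the 3 WT libraries, and the means were 13.96 ± 0.927 TPM in KO1 and 23.8 ± 1.001 TPM in WT (SD, n = 3 each). The mean in KO1 was 0.585 times the mean in WT. The difference was -0.73 ± 0.14 (SE) on the log2(TPM + 1) scale, with a 95% interval of -1.07 to -0.40 and a limma adjusted p of 0.022, rank 1410 of 20990 by p. With 3 libraries a group, an exact permutation test cannot go below p = 0.1, the value found here. The difference kept its direction in all 15 alternative fits, but the call was lost in 4 of them: the limma adjusted p was 0.101 and 0.058 when WT replicate 3 or WT replicate 1 was left out, 0.054 when KO1 replicate 3 was, and 0.056 with a replicate block. In whole-leaf RNA, fewer cells of a type and less RNA per cell cannot be told apart.

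The large subunit gene of the list, the kernel-mutant locus sh2, was expressed at a much lower level. It had 3.61, 1.94 and 2.66 TPM in KO1, against 3.35, 3.36 and 2.63 TPM in WT. The groups overlapped, with the highest and the lowest value both in KO1. The log2(TPM + 1) difference was -0.16 ± 0.24 (SE; 95% interval -0.72 to 0.40; limma adjusted p = 0.670), so the interval runs from 0.607 to 1.32 times the WT level on that scale. The ratio of bt2 to sh2 was 4.13, 7.15 and 4.91 in KO1, against 6.77, 7.30 and 9.24 in WT. In every library the small subunit transcript thus outnumbered the large subunit transcript of this pair at least 4-fold, and the ratios of the genotypes overlapped.

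The starch synthase genes of the list split into 1 abundant transcript (ss1) and 2 scarce ones (du1 and wx1). Other starch synthase genes were not followed. Starch synthase I (ss1), which extends short chains, had 201, 171 and 179 TPM in KO1, against 338, 148 and 210.0 TPM in WT. WT replicates 1 and 2 held the highest and the lowest value, so the WT range enclosed the KO1 range. The log2(TPM + 1) difference was -0.26 ± 0.30 (SE; limma adjusted p = 0.586), and the 95% interval allows 0.506 to 1.38 times the WT level on that scale.

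The gene du1, for the starch synthase III of the kernel, was uneven among KO1 libraries. It had 0.18, 5.34 and 0.96 TPM in KO1, against 0.14, 0.33 and 0.26 TPM in WT. KO1 replicate 2 stood apart, KO1 replicate 1 lay within the WT range, and the groups overlapped. The KO1 mean therefore rests on 1 library, and the gene was not tested in the fit over filtered genes. With no filter on low values it had a limma adjusted p of 0.336 (log2(TPM + 1) difference 0.98 ± 0.59, SE).

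Granule-bound starch synthase, encoded by wx1 and known for making amylose in endosperm and pollen, was close to 0 in every library. It was listed at 0 in KO1 replicates 1 and 2 and had 0.02 TPM in KO1 replicate 3, and it was listed at 0 in WT replicates 1 and 2 and had 0.1 TPM in WT replicate 3. No fold can be given at such values, and 1 other row of the table has the same 6 values.

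**Figure D3:**
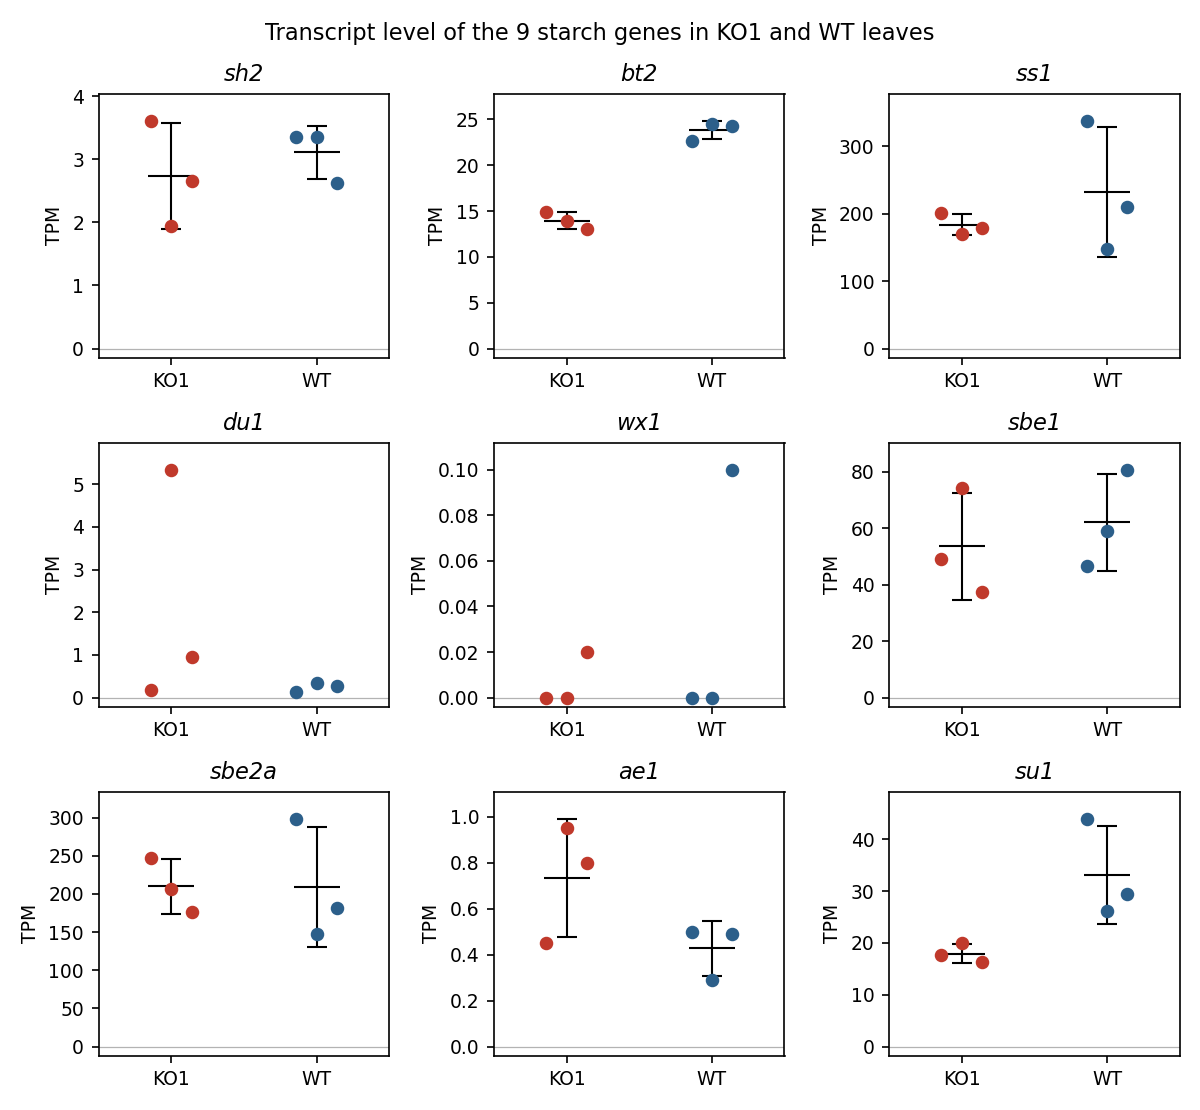
Level of each gene in TPM (vertical axes, each with its own scale) in the 3 KO1 and 3 WT libraries, replicates 1 to 3 from left to right within a group. Points are libraries, and bars are the mean and SD (n = 3), left out for du1 and wx1. The groups are apart for bt2 and su1, and 1 KO1 library at 5.34 TPM stands apart for du1.

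Among the branching enzymes, the leaf form sbe2a was far above the endosperm form ae1 in every library. The level of sbe2a was 248, 207 and 176 TPM in KO1, against 298, 148 and 181 TPM in WT. The means were almost equal, at 210.0 ± 36.0 TPM in KO1 and 209 ± 79.2 TPM in WT (SD, n = 3 each), and WT again spanned the KO1 range. The log2(TPM + 1) difference was 0.06 ± 0.29 (SE; limma adjusted p = 0.908). Its 95% interval allows 0.643 to 1.68 times the WT level on that scale, so equal means do not show equal levels.

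The endosperm form ae1 stayed below 1 TPM throughout. It had 0.45, 0.95 and 0.8 TPM in KO1, against 0.5, 0.29 and 0.49 TPM in WT. KO1 replicate 1 fell within the WT range, so the groups overlapped. With no filter on low values, its log2(TPM + 1) difference was 0.27 ± 0.16 (SE; limma adjusted p = 0.315). The ratio of sbe2a to ae1 was 550.2, 217 and 220 in KO1, against 597, 509 and 369 in WT. These ratios rest on ae1 levels of less than 1 TPM, which are imprecise.

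Branching enzyme I, sbe1, supplied most of the rest of the branching enzyme transcripts in the list. Its level was 49.2, 74.1 and 37.3 TPM in KO1, against 46.6, 59.1 and 80.7 TPM in WT. The groups overlapped, and the log2(TPM + 1) difference was -0.23 ± 0.31 (SE; 95% interval -0.96 to 0.50; limma adjusted p = 0.629). This estimate was unstable: it was -0.72 with library weights (limma adjusted p = 0.071), -0.49 without KO1 replicate 2, -0.42 without WT replicate 1, -0.027 without WT replicate 3 and -0.0037 without KO1 replicate 3. Of the summed TPM of sbe1, sbe2a and ae1, sbe2a made up 83.3%, 73.3% and 82.2% in KO1, against 86.4%, 71.3% and 69.0% in WT. The share of sbe1 was 20.1% ± 5.40 in KO1 and 24.3% ± 9.41 in WT (SD, n = 3 each), and that of ae1 was 0.288% ± 0.119 in KO1 and 0.157% ± 0.026 in WT (SD, n = 3 each). The make-up of the branching enzyme pool overlapped between genotypes for all 3 genes.

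The isoamylase gene of the list, su1, was lower in every KO1 library than in any WT library, without passing the threshold. It had 17.6, 19.9 and 16.3 TPM in KO1, against 43.9, 26.1 and 29.4 TPM in WT. The KO1 libraries lay close together, while WT replicate 1 lay well above the other WT libraries. The mean in KO1 was 0.541 times the mean in WT, and the log2(TPM + 1) difference was -0.82 ± 0.22 (SE; 95% interval -1.35 to -0.29; limma adjusted p = 0.053; exact permutation p = 0.1, the smallest possible). The estimate lay further from 0 than that of bt2, and the spread was wider. In 4 of the 15 alternative fits su1 passed: at limma adjusted p = 0.04996 with a minimum of 5 TPM, 0.047 after quantile normalization, 0.017 with library weights and 0.047 without WT replicate 2.

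**Figure D4:**
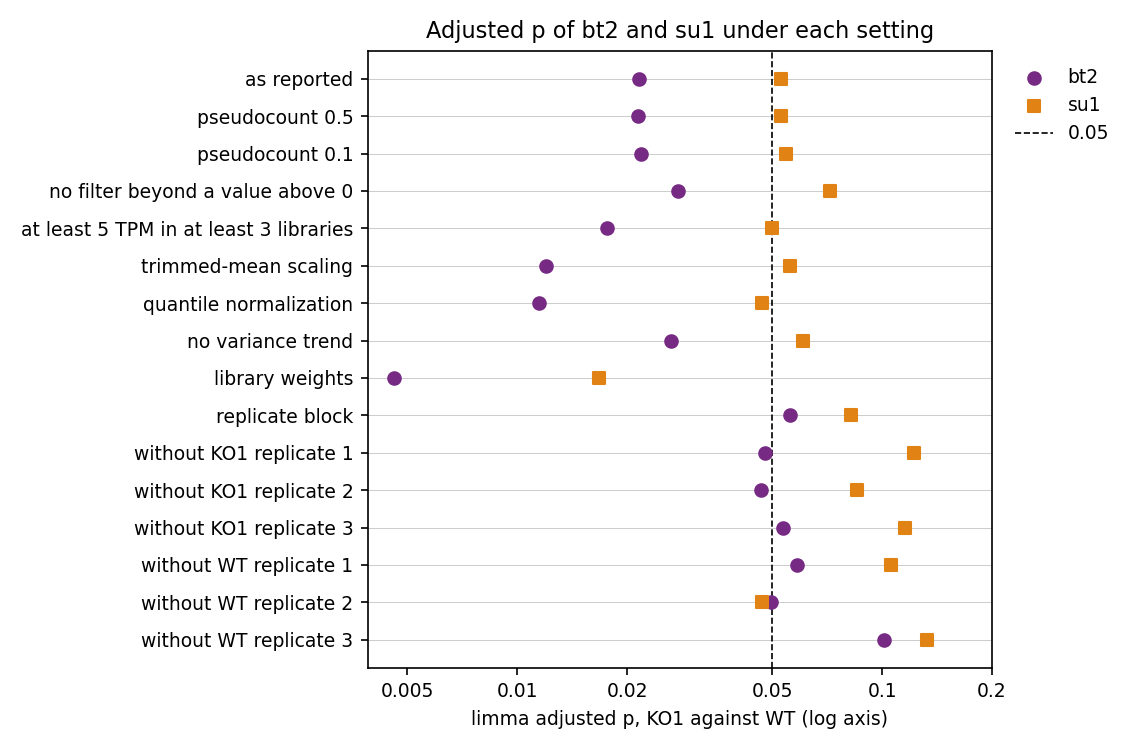
Adjusted p from limma (horizontal log axis) for bt2 (circles) and su1 (squares) in the reported fit and each of the 15 alternatives (vertical axis), with a dashed line at 0.05. The circles for bt2 lie left of the line except for the replicate block and 3 of the 6 left-out libraries, and the squares for su1 lie mostly right of it.

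Within single libraries, ss1, sbe2a and su1 shared the high value of WT replicate 1, whereas bt2, sbe1 and sh2 did not have their highest value there. The ratio of ss1 to sbe2a was 0.811, 0.826 and 1.02 in KO1, against 1.13, 1.001 and 1.16 in WT. These ratios overlapped between genotypes, with KO1 replicate 3 above WT replicate 2. The ratio of su1 to sbe2a was 0.071, 0.096 and 0.093 in KO1, against 0.147, 0.177 and 0.162 in WT, so set against sbe2a the WT values of su1 were close together and all above those of KO1. Ratios within a library do not depend on its scaling. They were chosen after the values were seen and were not tested.

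The genes whose pattern was most like that of sbe2a, the member with the highest mean, were Zm00001d037652 (Pearson r = 0.99) and Zm00001d000204 (r = 0.97), measured on log2(TPM + 1) over the 6 libraries among 15398 genes with a mean of at least 5 TPM. Zm00001d037652 had 11.8, 10.5 and 8.16 TPM in KO1, against 15.6, 6.37 and 8.55 TPM in WT. Like sbe2a, it was highest in WT replicate 1 and lowest in WT replicate 2. With 6 libraries and so many candidates, high values of r are found for many genes, here above 0.9 for 33.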

How the data were processed

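The authors deposited 1 table of TPM values for the 6 libraries, rounded to 2 decimals, with 1 column per library. RSEM, Bowtie2 and DESeq2 are named, without versions or roles, per the submitters' processing notes. The genome build, annotation and read filters are not given in the sources read for this work. Depth is unknown, so no counting interval is given. None of the 44320 identifiers matched the RefSeq table of 49888 genes (Zm-B73-REFERENCE-NAM-5.0), so symbols come from the list that defined the set, other genes of the pathway could not be added, and no sequence or coordinate is printed.

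Genes with at least 1 TPM in at least 3 libraries entered a two-sided test of log2(TPM + 1) in limma 3.58.1 under R 4.3.3, with the variance trend switched on, no covariate and Benjamini-Hochberg adjustment over all 20990 genes (threshold 0.05). Differences on this scale understate changes of low genes. The procedure was tested on simulated data. Replicate numbers were not treated as pairs, since the labels do not state a pairing. Libraries of the same number deviated from their group means with correlations of -0.01, 0.09 and 0.02, below the minimum of 0.1. With 3 libraries a group, such correlations do not decide whether the numbers pair libraries. All 9 members are named; the 2 most similar genes were chosen by Pearson r. Alternatives covered the pseudocount, filter, scaling, variance model, library weights, replicate block and each left-out library. Members and lists were chosen with earlier results of these data known. Plots used matplotlib 3.10.9.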

Additional observations from a re-analysis of the deposited data

How the results depend on the processing

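Of the 9 genes, 1 was called lower, and the count was 2 with a minimum of 5 TPM, after quantile normalization and with library weights (bt2 and su1 each time), 0 with a replicate block, and between 0 and 2 when single libraries were left out. No member that entered a fit was called higher in any of the 15 alternatives in limma. The genes du1, wx1 and ae1 entered only the fit with no filter on low values, so no other alternative could call them. The fit with a minimum of 5 TPM also left out sh2. The log2 difference of bt2 stayed between -0.86 and -0.69 and that of su1 between -0.97 and -0.60. The number of genes called over the whole table was 3301, 6838 with library weights, 2806 with the replicate block, and between 778 (without WT replicate 3) and 2929 when single libraries were left out. Quantile normalization changed the split of calls to 1656 higher and 1738 lower, against 2071 and 1230 as reported, and put the median of all log2 differences at -0.09, against 0.05 as reported; relative to that median, bt2 lay at -0.77 after quantile normalization and -0.78 as reported. Signs turned only for members that were not called: sbe2a was -0.031 under trimmed-mean scaling and -0.16 to 0.35 with a library left out, sh2 was 0.044 with library weights and -0.32 to 0.0032 with a library left out, and ss1 was -0.54 to 0.055 with a library left out. The summed level of the members was 484.6 TPM in KO1 and 564 TPM in WT, and without sbe2a it was 275 TPM in KO1 and 355 TPM in WT by construction. Leaving out each library gave 459.6 to 513.9 TPM in KO1 and 469.0 to 641 TPM in WT. Of the 6 libraries, 3 correlated best with the library of their own number in the other genotype (both numbered 2, and WT replicate 3). With 3 candidates for each library, some such matches arise without pairing, so the count does not decide whether the numbers pair libraries. The labels do not state a pairing. The causes of the lost calls were not tested. Unknown depth leaves the precision of du1, ae1 and wx1 unknown.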
